A study of Homo sapiens with 12 samples.

Results

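The MYC, MAX and MXD network is a set of transcription factors that pair with one another through a shared leucine zipper, and its 10 genes MYC, MYCN, MYCL, MAX, MXD1, MXD3, MXD4, MXI1, MNT and MLX were followed here by name among the 58347 genes counted in A375 cells. A375 is an established human melanoma cell line that carries a BRAF mutation. RNA was sequenced from 12 samples, 3 each of cells exposed for 8 h to the vehicle dimethyl sulfoxide (DMSO), to tretinoin, to vemurafenib or to the combination of vemurafenib and tretinoin. Tretinoin is all-trans retinoic acid, a ligand of the retinoic acid receptors, and vemurafenib is an inhibitor of mutant BRAF. A concentration of 5 µM was listed for every group, the vehicle included, so the amount of each drug in the combination cannot be read from the labels. All groups came from this single line and from the 8 h time point, and the labels do not say whether the 3 samples of a group came from separate cultures, so P-values measure the spread between these samples, which may be technical.

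MYC, MYCN and MYCL bind DNA only as pairs with MAX, at the E-box CACGTG, and the pairs activate genes of ribosome assembly, nucleotide synthesis and cell cycle entry. MXD1, MXD3, MXD4, MXI1 (also called MXD2) and MNT compete for MAX and for the same site, and recruit the SIN3 corepressors with histone deacetylases. MLX is a MAX-like protein that pairs with MondoA (MLXIP), ChREBP (MLXIPL), MXD1, MXD4 or MNT, and links the network to glucose metabolites. MYC transcription depends on growth factor and ERK signalling, and the MXD proteins are known for their rise when cells leave the cycle.

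Because network proteins bind CACGTG, the bases before the start sites of the members were searched for it. Promoter windows (RefSeq, GRCh38.p14) were used for all members but MYC. These 9 members had 12 windows. The 250 bases before the start held CACGTG in 3 members with 1 window each, MXD4, MNT and MLX. The motif is its own reverse complement, so both strands are covered. Counted by window, 6.34% of the 35116 windows searched, from 27305 genes, held it. The stretches around it that lie outside every annotated exon (GENCODE 29) are shown with the motif in capitals, for MXD4 at chr4:2262295-2262359 on the minus strand, for MNT at chr17:2401119-2401310 on the minus strand and for MLX at chr17:42566850-42567067 on the plus strand.
MXD4: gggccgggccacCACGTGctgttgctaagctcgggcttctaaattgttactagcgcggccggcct
MNT: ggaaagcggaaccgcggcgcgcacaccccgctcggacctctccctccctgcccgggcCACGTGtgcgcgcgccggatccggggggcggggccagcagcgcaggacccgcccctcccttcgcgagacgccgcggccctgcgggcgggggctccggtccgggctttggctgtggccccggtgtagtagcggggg
MLX: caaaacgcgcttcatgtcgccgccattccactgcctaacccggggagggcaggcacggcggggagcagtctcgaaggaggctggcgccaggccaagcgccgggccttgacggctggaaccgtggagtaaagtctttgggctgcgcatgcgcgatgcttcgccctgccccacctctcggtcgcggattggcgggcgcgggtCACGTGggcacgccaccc
The motif began 238 bases before the RefSeq start in MXD4, 193 in MNT and 50 in MLX. Of the members with the motif, MXD4 and MLX are described below with changes in opposite directions. The letters GTAAACA, to which FOXO factors bind, were also searched on both strands and lay in 1 member, MXI1, in 1 of its 3 windows, 151 bases before the start, against 2.98% of all windows. A match describes these letters only.

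The total count per sample ranged from 13510235 to 21534377. Levels are given as normalized CPM, which are counts scaled to a common library size (CPM) after the trimmed mean of M-values (TMM) normalization of edgeR, and comparisons between genes use normalized CPM per kilobase of exon. Of all genes, 16740 passed edgeR's filter on low counts, among them 9 of the 10 members, all but MYCN. Differences were tested with edgeR's quasi-likelihood test over all these genes and called at a Benjamini-Hochberg adjusted P below 0.05. The labels were checked against known target genes. All 8 genes of a list that follows ERK signalling, such as DUSP6 and SPRY4, fell with vemurafenib and with the combination. Over all genes 26.3% and 26.5% were lower. Of 6 genes of a retinoic acid receptor list, 4 rose with tretinoin, against 3.48% of all genes. Vemurafenib alone raised 2 of these 6 and lowered 3, so this list moved with vemurafenib as well. Tretinoin replicate 1 stood apart from its group, with a chi-square per degree of freedom over genes of 21.4 and 24.4 against replicates 2 and 3, which differed from each other by 2.69. The pairs of the other groups lay between 2.79 and 9.28. Of 7 melanocyte lineage markers, SOX10 was listed at 0 in all 12 samples and TYR reached at most 1 count, while MITF lay between 13.4 and 33.1 and S100B between 6.16 and 10.5 normalized CPM. PMEL, MLANA and DCT had at most 25, 19 and 18 counts. The 7 summed to 25.9 to 30.8 normalized CPM with DMSO, 24.0 to 28.6 with tretinoin, 42.1 to 44.0 with vemurafenib and 38.0 to 39.5 with the combination. MITF was called higher with vemurafenib (log2 fold change 0.88) and with the combination (0.64). PMEL (-0.52 and -0.45) and S100B (0.02 and 0.09) were not called in either, and SOX10, MLANA, TYR and DCT were not tested. The summed level of 4 keratinocyte and epithelial markers was 12.6 to 16.8 normalized CPM with DMSO, 10.0 to 15.2 with tretinoin, 29.4 to 32.3 with vemurafenib and 26.7 to 36.0 with the combination. For 4 fibroblast markers it was 4.25 to 6.23, 4.30 to 4.77, 12.9 to 14.9 and 9.57 to 10.1 in the same order, and no marker of either list was at 0 throughout a group. For 3 immune markers, of which CD68 had at most 2 counts in any sample, it was 0.838 to 2.36, 2.14 to 4.40, 2.44 to 3.55 and 3.44 to 4.73, and for 2 endothelial markers 5.22 to 5.81, 12 to 17.2, 0.361 to 1.04 and 3.08 to 4.12. Their part in the results was not tested. In RNA of whole cultures, less RNA per cell and fewer cells that express a gene cannot be told apart.

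Vemurafenib lowered MYC, MAX and MLX and raised MXD3, MXD4 and MYCL. These are 3 members lower and 3 higher of 9 tested, or 6 in all, while 52.6% of all genes tested were called in this comparison, 26.4% higher and 26.3% lower. With scaling by total counts alone the share higher among called genes went from 50.1% to 71.4%. The combination lowered MYC, MAX, MLX and MXI1 and raised MXD3 and MXD4, again 6 of 9 members, against 53.6% of all genes, 27.1% higher and 26.5% lower. Tretinoin alone lowered MXD4, 1 of 9 members against 5.68% of all genes, 3.48% higher and 2.2% lower. The members' median log2 fold change was -0.05 with vemurafenib, -0.12 with the combination and -0.08 with tretinoin, beside 0.02, 0.03 and 0.01 over all genes. The 3 comparisons share the DMSO samples. MYC ranked 30th from the lowest log2 fold change among the 16740 genes with vemurafenib and 43rd with the combination.

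**Figure D1:**
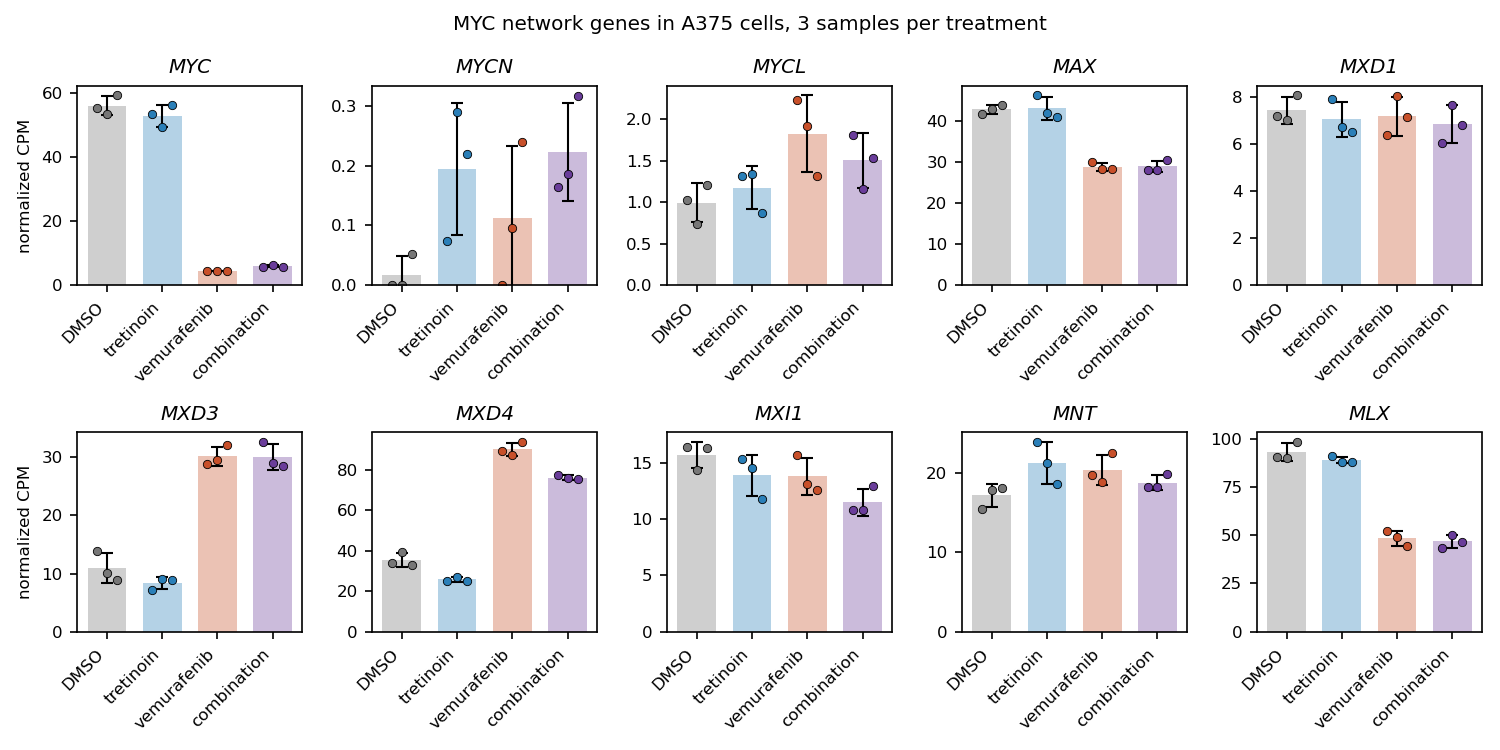
Normalized CPM (y axes, each from 0) of the 10 network genes in the 4 treatment groups, with a point for each of 3 samples, bars at the group mean and error bars of 1 SD. MYC, MAX and MLX sit lower, and MXD3 and MXD4 higher, in all vemurafenib and combination samples than in all DMSO and tretinoin samples. The share of all genes that separate in this way is not given here. Against DMSO, 52.6% of all genes were called with vemurafenib and 53.6% with the combination.

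MYC lies at chr8:127735434-127741434 on the plus strand (GRCh38, GENCODE 29, as for all gene positions here). Its normalized CPM was 55.2, 53.3 and 59.1 in the DMSO samples, 53.4, 49.2 and 56.0 with tretinoin, 4.31, 4.33 and 4.33 with vemurafenib, and 5.67, 6.27 and 5.66 with the combination. All vemurafenib and combination samples were far below all others, and the tretinoin samples overlapped the DMSO samples. MYC fell 12.9-fold with vemurafenib (log2 fold change -3.69, SE 0.09, edgeR adjusted P = 4.1e-15) and 9.51-fold with the combination (-3.25, SE 0.09, edgeR adjusted P = 9.2e-15). With tretinoin its log2 fold change was -0.08, with a 95% interval of -0.24 to 0.08. The vemurafenib samples held 72 to 90 MYC counts each, and the closeness of their CPM values (SD 0.01002) is below the counting error of such counts.

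Against vemurafenib alone, MYC was 1.36-fold higher in the combination (log2 fold change 0.44, SE 0.11, edgeR adjusted P = 0.027). The 3 combination samples were all above the 3 vemurafenib samples. This was the only member called of 9 in that comparison, where 4.47% of all genes were called, 2.27% higher and 2.2% lower, and the call was near the threshold. It was lost in 10 of 14 alternatives, in which the log2 difference kept its direction, between 0.39 and 0.47 over all 14, and the adjusted P lay between 0.022 and 0.14. Among these, DESeq2 gave 0.44 with an adjusted P of 0.052, and the call was kept in 1 of the 6 fits that left out a sample of both groups, that without combination replicate 1 (adjusted P = 0.0496). Both groups remained far below DMSO.

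MYCL, a paralog first found in lung cancer, lies at chr1:39895426-39902256 on the minus strand and was measured from few counts. Its counts were 16, 11 and 23 with DMSO, 18, 23 and 16 with tretinoin, 43, 40 and 22 with vemurafenib, and 33, 25 and 34 with the combination. On the normalized scale every vemurafenib sample (1.32 to 2.23 CPM) was above every DMSO sample (0.743 to 1.21 CPM), while the combination samples (1.16 to 1.82 CPM) overlapped both. MYCL rose 1.82-fold with vemurafenib (log2 fold change 0.86, SE 0.30, edgeR adjusted P = 0.021), a call lost in 5 of 14 alternatives, including DESeq2 and the fits without DMSO replicate 2 (0.70), vemurafenib replicate 1 (0.70) or vemurafenib replicate 2 (0.82). For the combination the log2 fold change was 0.56 with an interval of -0.07 to 1.20. MYCN, a paralog amplified in neuroblastoma, at chr2:15940564-15947007 on the plus strand, had 0 to 7 counts per sample and was not tested. Its counts were 0, 0 and 1 with DMSO, 1, 5 and 4 with tretinoin, 0, 2 and 4 with vemurafenib, and 3, 4 and 7 with the combination, too few to compare.

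MAX, the obligate partner of MYC and a partner of the MXD proteins, lies at chr14:65006174-65102695 on the minus strand. The MAX samples had a normalized CPM of 41.6, 42.8 and 43.9 with DMSO, 46.1, 41.8 and 41.0 with tretinoin, 29.9, 28.3 and 28.2 with vemurafenib, and 28.0, 28.1 and 30.5 with the combination. The samples with vemurafenib, alone or combined, did not overlap the others. MAX fell 1.49-fold with vemurafenib (log2 fold change -0.57, SE 0.07, edgeR adjusted P = 4.9e-06) and 1.48-fold with the combination (-0.57, SE 0.07, edgeR adjusted P = 4.7e-06). With scaling by total counts alone the values were smaller, -0.38 and -0.40, and both calls were kept. Between the combination and vemurafenib its log2 difference was 0.00, with an interval of -0.15 to 0.16.

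MXD3, at chr5:177301461-177312757 on the minus strand, is the member of the MXD family described in dividing cells at S phase. Its normalized CPM was 13.9, 10.1 and 8.92 with DMSO, 7.19, 9.07 and 8.87 with tretinoin, 28.9, 29.5 and 32.0 with vemurafenib, and 32.6, 29.04 and 28.4 with the combination. Every sample with vemurafenib was above 28 and every sample without it below 14. MXD3 rose 2.75-fold with vemurafenib (log2 fold change 1.46, SE 0.13, edgeR adjusted P = 5.1e-08) and 2.74-fold with the combination (1.46, SE 0.13, edgeR adjusted P = 4.7e-08). With tretinoin the log2 fold change was -0.38 and the samples overlapped (edgeR adjusted P = 0.13). MXD3 shares 17.97% of its exon bases with RAB24 on the same strand and 22.47% with PRELID1 on the opposite strand, and fragments over shared exons were assigned to neither gene. RAB24 had a log2 fold change of 0.13 with vemurafenib, which did not pass the test, and PRELID1 fell by 0.49.

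MXD4, at chr4:2247432-2262294 on the minus strand, was the most abundant antagonist in every group and the only member called with tretinoin. Its normalized CPM was 33.8, 39.6 and 33.2 with DMSO, 25.1, 27.2 and 25.3 with tretinoin, 89.6, 87.6 and 93.9 with vemurafenib, and 77.4, 76.1 and 75.4 with the combination. The 4 groups did not overlap, with tretinoin lowest and vemurafenib highest. MXD4 fell 1.37-fold with tretinoin (log2 fold change -0.46, SE 0.08, edgeR adjusted P = 0.0018), and without tretinoin replicate 1 the value was -0.44 (adjusted P = 0.0016). It rose 2.55-fold with vemurafenib (1.35, SE 0.07, edgeR adjusted P = 1.1e-10) and 2.15-fold with the combination (1.10, SE 0.07, edgeR adjusted P = 1.4e-09). The combination samples lay below the vemurafenib samples, at a log2 difference of -0.24 that missed the threshold (SE 0.07, edgeR adjusted P = 0.061) and passed it in 4 of 14 alternatives, 2 of them with DESeq2 (adjusted P = 0.020 without and with its beta prior), with a range of 0.0075 to 0.34 over all 14.

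MXI1, at chr10:110207605-110287365 on the plus strand, had a normalized CPM of 16.4, 14.4 and 16.3 with DMSO, 15.3, 14.5 and 11.8 with tretinoin, 15.7, 13.1 and 12.6 with vemurafenib, and 10.8, 10.8 and 12.9 with the combination. Only the combination samples were all below the DMSO samples. MXI1 fell 1.36-fold with the combination (log2 fold change -0.45, SE 0.12, edgeR adjusted P = 0.0047), a call lost when samples were scaled by total counts alone (-0.29, adjusted P = 0.068). Its log2 fold change was -0.19 with either drug alone, neither of which passed the test. The difference of the combination from vemurafenib (-0.26, edgeR adjusted P = 0.33) and from tretinoin (-0.26, edgeR adjusted P = 0.087) was not called either.

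MNT, the most widely expressed of the MAX-binding repressors, lies at chr17:2384060-2401118 on the minus strand. Its normalized CPM was 15.5, 17.9 and 18.1 with DMSO, 23.9, 21.2 and 18.6 with tretinoin, 19.8, 18.9 and 22.5 with vemurafenib, and 18.3, 18.3 and 19.8 with the combination. Every treated sample was above every DMSO sample, but no comparison passed the test, with log2 fold changes of 0.30 with tretinoin (edgeR adjusted P = 0.11), 0.25 with vemurafenib (edgeR adjusted P = 0.059) and 0.13 with the combination (edgeR adjusted P = 0.31). MNT passed it in 3 of 14 alternatives for vemurafenib and in 1 of 14 for each of the other treatments. MXD1, at chr2:69897688-69942945 on the plus strand, the founding antagonist that rises in differentiating cells, had overlapping samples in all groups, between 6.05 and 8.07 normalized CPM. Its 95% intervals were -0.33 to 0.23 for vemurafenib and -0.40 to 0.16 for the combination on the log2 scale.

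MLX lies at chr17:42567068-42573239 on the plus strand. The MLX samples had a normalized CPM of 90.8, 90.2 and 98.4 with DMSO, 90.9, 88.1 and 87.9 with tretinoin, 52.0, 49.2 and 44.2 with vemurafenib, and 43.6, 50.2 and 46.7 with the combination. The samples with vemurafenib were below 53 and all others above 87. MLX fell 1.92-fold with vemurafenib (log2 fold change -0.94, SE 0.07, edgeR adjusted P = 1.2e-08) and 1.99-fold with the combination (-0.99, SE 0.07, edgeR adjusted P = 5.9e-09). It shares 18.08% of its exon bases with PSMC3IP on the opposite strand, which fell by 0.83 on the log2 scale with vemurafenib. Of the MLX partners, MLXIP, which encodes MondoA, was between 78.4 and 97.0 normalized CPM in all samples and was called in no comparison, with an interval of -0.18 to 0.16 for vemurafenib. MLXIPL, which encodes ChREBP, had 1 to 9 counts per sample and was not tested. MGA, a repressor that also pairs with MAX, fell with the combination (log2 fold change -0.30, SE 0.09, edgeR adjusted P = 0.0096), a call lost without DMSO replicate 3 (-0.22) and with scaling by total counts (-0.13).

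**Figure D2:**
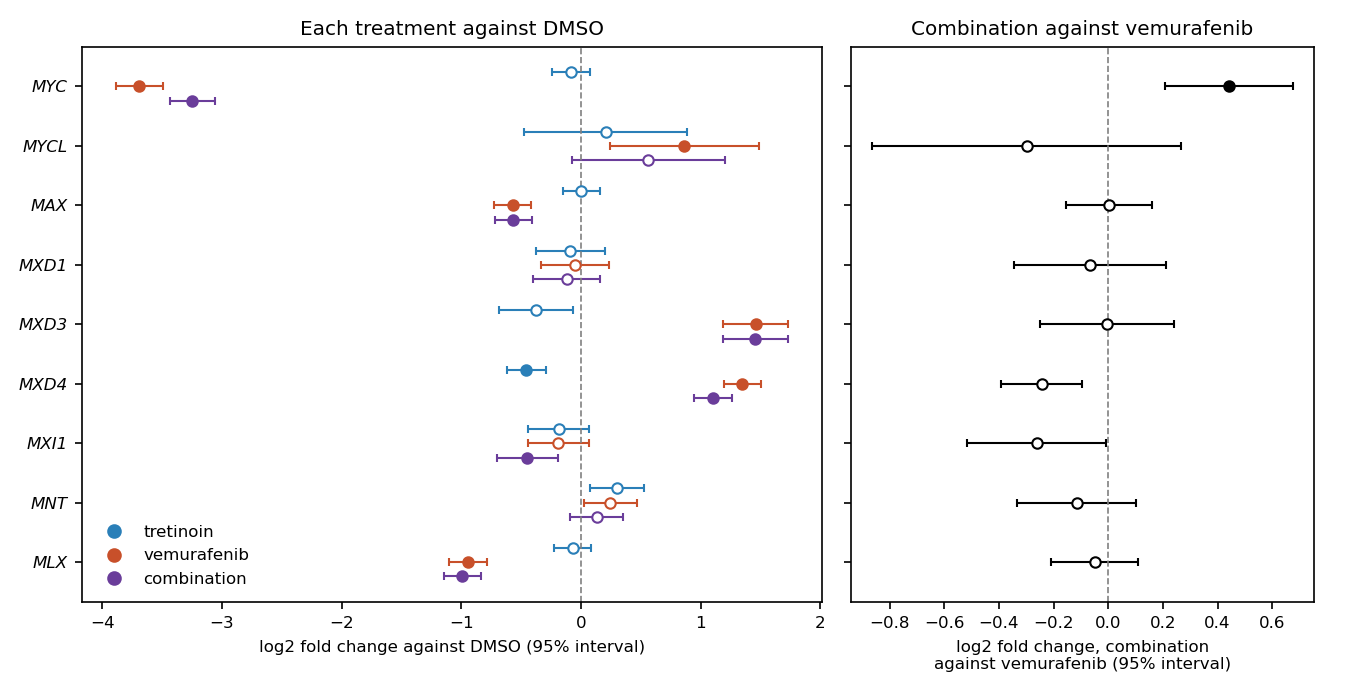
Log2 fold changes (x axes) of the 9 tested network genes against DMSO for tretinoin, vemurafenib and the combination (left), and for the combination against vemurafenib (right), with 95% intervals. Filled points passed an adjusted P of 0.05 and open points did not, and MYC at -3.69 and -3.25 lies farthest from 0.

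Against tretinoin alone, the combination gave the same members as against DMSO except MXI1, so that MYC (log2 fold change -3.17), MAX (-0.57) and MLX (-0.92) were lower and MXD3 (1.83) and MXD4 (1.56) higher, 5 of 9 members against 49.1% of all genes, 24.1% higher and 25.0% lower. The interaction of the drugs, which is the tretinoin effect with vemurafenib less that without it, was called in 0 of 9 members by edgeR, against 0.806% of all genes, 0.382% higher and 0.424% lower, with an unadjusted P below 0.05 in MYC and MNT. It was 0.52 for MYC (SE 0.13, edgeR adjusted P = 0.082) and -0.42 for MNT (SE 0.15, edgeR adjusted P = 0.21), and lay within 0.51 of 0 for the other members. DESeq2 called none of them.

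On the scale per kilobase of exon, the members in DMSO ranked MLX (21.9), MYC (18.6), MAX (9.65), MXD4 (5.03), MXI1 (3.41), MXD3 (2.13), MNT (1.97), MXD1 (1.17), MYCL (0.197) and MYCN (0.0068). All neighbours in this order had samples that did not overlap, except MXD3 and MNT. In tretinoin the order kept MLX, MYC, MAX, MXD4 and MXI1 in front, with MXI1 (3.01) and MNT (2.43) overlapping. In vemurafenib MXD4 led (12.8), followed by MLX (11.4), MAX (6.50), MXD3 (5.85), MXI1 (2.995), MNT (2.34) and, in seventh place, MYC (1.44), with no overlap between neighbours. In the combination MLX (11.0) overlapped MXD4 (10.8), MAX (6.52) overlapped MXD3 (5.83), and MYC (1.96) was again seventh. The lengths include exon bases shared with other genes, such as 18.08% of MLX and 12.2% of MNT, besides those of MXD3 given above. Fragments there were assigned to neither gene, so such levels, here and in the sums below, are lowered by amounts that were not estimated. The order depends on the length used. Per kilobase of the longest transcript MXD3 (13.2) stood above MAX (9.13) with vemurafenib, without overlap, as it did with the combination (13.2 and 9.15), MNT stood above MXI1 in all groups but DMSO with overlapping samples, MXD3 stood above MXI1 in DMSO with overlapping samples, and MYC kept its place in every group.

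MAX can be bound by a MYC protein or by an antagonist, so the transcripts of both kinds were summed in each sample as a description. MGA, which also pairs with MAX, was left out of the sums. It had 2.25, 2.34 and 2.71 normalized CPM per kilobase in the DMSO samples. MXD1, MXD4 and MNT were counted in full, though they can also pair with MLX. The MYC family (MYC, MYCN and MYCL) summed to 18.6, 17.9 and 19.95 normalized CPM per kilobase in the DMSO samples, 18.1, 16.8 and 18.9 with tretinoin, 1.88, 1.86 and 1.80 with vemurafenib, and 2.31, 2.39 and 2.31 with the combination. The antagonists (MXD1, MXD3, MXD4, MXI1 and MNT) summed to 14.0, 13.9 and 13.3 with DMSO, 12.3, 12.3 and 11.0 with tretinoin, 25.0, 24.4 and 26.0 with vemurafenib, and 22.7, 22.1 and 22.4 with the combination. The antagonist transcripts per MYC family transcript were 0.731 ± 0.0557 with DMSO, 0.664 ± 0.0755 with tretinoin, 13.6 ± 0.727 with vemurafenib and 9.57 ± 0.309 with the combination (mean ± SD, n = 3). The ratio was below 1 in every sample without vemurafenib and above 9 in every sample with it, and the combination samples (9.23 to 9.82) lay below the vemurafenib samples (13.1 to 14.5). Of the tested members in the ratio, only MYC was called between the combination and vemurafenib, a call lost in 10 of 14 alternatives. With the length of the longest transcript in place of all exon bases, the ratios were 0.944, 0.851, 18.1 and 13.1, in the same order.

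**Figure D3:**
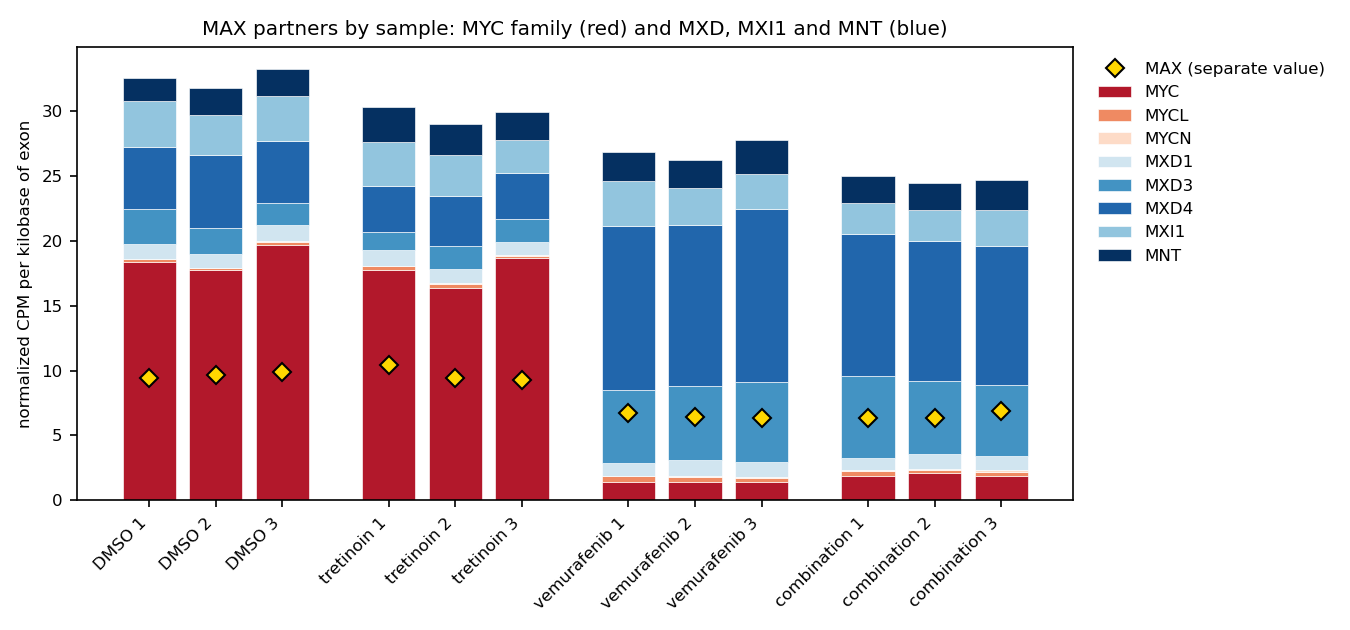
Normalized CPM per kilobase of exon (y axis, stacked from 0) of the MYC family in red and of the MXD1, MXD3, MXD4, MXI1 and MNT antagonists in blue, for each of the 12 samples, with MAX as a diamond on the same scale. The red share is 56.4% to 63.2% of the stack in DMSO and tretinoin samples and 6.47% to 9.78% with vemurafenib alone or combined, and MAX goes from between 9.25 and 10.4 to between 6.32 and 6.88.

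Genes that MYC and MAX are known to activate fell together with vemurafenib. Of 34 such genes, 28 were lower and 2 higher with vemurafenib, and 28 were lower and 3 higher with the combination, with medians of -0.68 and -0.64 beside 0.02 and 0.03 over all genes and 26.3% and 26.5% of all genes called lower. The lower genes included NOP16, a nucleolar protein (log2 fold change -1.31 with vemurafenib and -1.19 with the combination), MRTO4, a factor of the large ribosomal subunit (-1.11 and -1.08), DCTPP1, a nucleotide pyrophosphatase (-1.05 and -1.05), and ODC1, the first enzyme of polyamine synthesis (-0.46 and -0.56). CCND2, which encodes cyclin D2, went the other way, from 0.7999 ± 0.379 normalized CPM with DMSO to 5.16 ± 0.345 with vemurafenib and 5.58 ± 0.826 with the combination (mean ± SD, n = 3), and it also rose with tretinoin (log2 fold change 1.96, SE 0.33, edgeR adjusted P = 0.0015). With tretinoin, 1 of the 34 was higher and 1, ODC1, was lower (-0.34, SE 0.07, edgeR adjusted P = 0.0054), near the 3.48% and 2.2% of all genes, and the number lower became 0 with only the groups compared, 8 without tretinoin replicate 3 and 10 without the filter on low counts. Between the combination and vemurafenib none of the 34 was called by edgeR, near the 4.47% of all genes called there. In any alternative at most 1 was called.

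Of genes that MYC is known to repress, 8 of 9 were tested, and 5 were higher and 1 lower with vemurafenib, where 26.4% of all genes were higher and 26.3% lower. With the combination 6 were higher and 1 lower, against 27.1% and 26.5% of all genes. With tretinoin none was higher and 3 were lower, against 3.48% and 2.2%. The medians were 0.55, 0.43 and -0.16, beside 0.02, 0.03 and 0.01 over all genes. CDKN1C, the cyclin-dependent kinase inhibitor p57, was 10.4 ± 0.833 normalized CPM with DMSO, 6.63 ± 0.495 with tretinoin, 46.8 ± 1.014 with vemurafenib and 23.9 ± 4.64 with the combination (mean ± SD, n = 3). It was the only gene of this list called between the combination and vemurafenib (log2 fold change -0.98, SE 0.11, edgeR adjusted P = 1.2e-05). That is 1 of 8 tested, against 4.47% of all genes. CDKN1B, the inhibitor p27, rose by 0.60 on the log2 scale with vemurafenib and 0.45 with the combination, and was lower with tretinoin (-0.30, edgeR adjusted P = 0.046), a call lost in 8 of 14 alternatives. NDRG2 rose by 1.42 with vemurafenib and 1.18 with the combination. CEBPA, a transcription factor of differentiation, rose with the combination (0.97, SE 0.23, edgeR adjusted P = 0.0016) and missed the threshold with vemurafenib (0.57, edgeR adjusted P = 0.0502). NDRG1, a gene of stress and differentiation, fell with tretinoin (-0.57, SE 0.08, edgeR adjusted P = 3.3e-04), while its values of 0.06 with vemurafenib and -0.01 with the combination did not pass the test. The gene that was lower with vemurafenib and with the combination was GADD45A (-0.47 and -0.33), a DNA damage response gene that was picked after its value was seen. Neither call held with scaling by total counts, and that with the combination was lost in 10 of 14 alternatives.

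Of the genes that MLX activates with MondoA or ChREBP, TXNIP, which restrains glucose uptake, was 15.0 ± 1.30 normalized CPM with DMSO, 15.6 ± 1.40 with tretinoin, 128 ± 4.40 with vemurafenib and 130.3 ± 8.57 with the combination (mean ± SD, n = 3). TXNIP rose by 3.10 on the log2 scale with vemurafenib (SE 0.09, edgeR adjusted P = 1.3e-14) and 3.12 with the combination. ARRDC4, its paralog, rose by 1.36 (SE 0.17) and 1.45. KLF10, an early growth response gene, went from 53.6 ± 4.63 normalized CPM with DMSO to 27.5 ± 0.0889 with vemurafenib and 39.8 ± 2.37 with the combination, so that it fell in both, and it was higher in the combination than with vemurafenib (log2 fold change 0.54, SE 0.08, edgeR adjusted P = 2.6e-04). PKLR had at most 3 counts and was not tested. MLX itself fell while TXNIP and ARRDC4 rose.

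**Figure D4:**
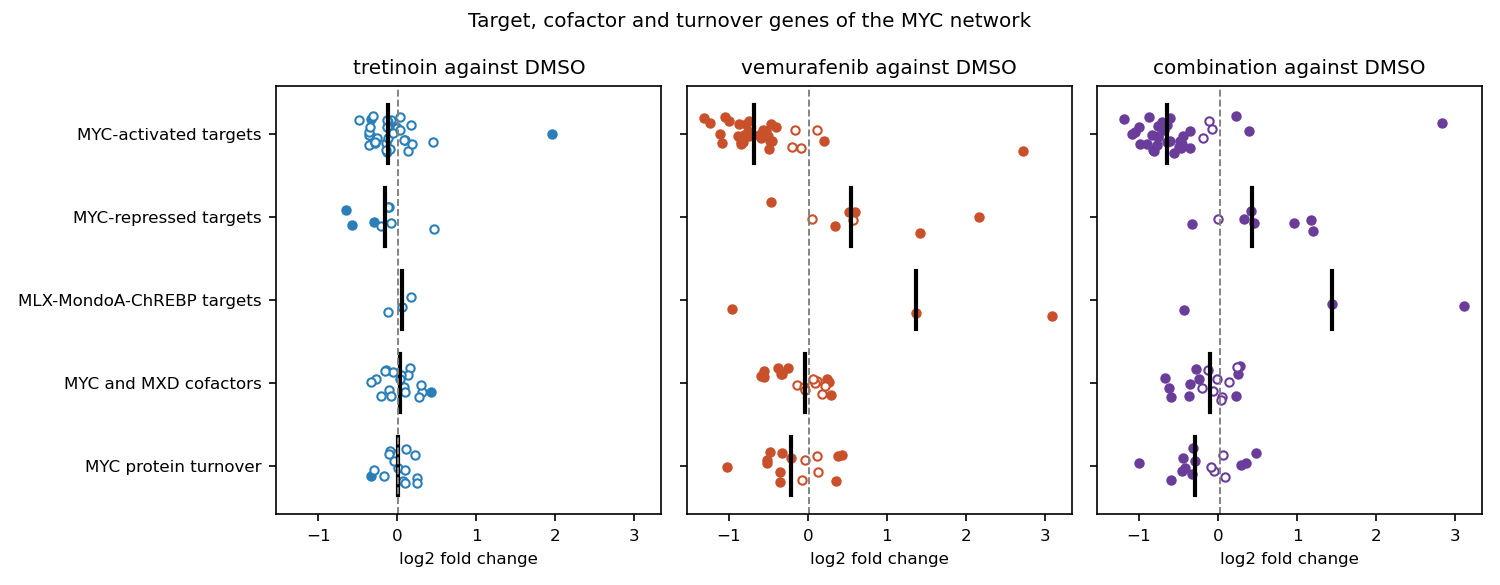
Log2 fold changes against DMSO (x axes) of the genes of 5 lists (rows) for tretinoin, vemurafenib and the combination, with filled points for genes past an adjusted P of 0.05, open points for the others, black bars at the list medians and a dashed line at the median of all genes. The 34 MYC-activated targets centre at -0.68 with vemurafenib and -0.64 with the combination, with CCND2 alone above 2.

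Cofactors and regulators of MYC protein moved in both directions. Of 18 cofactors, 3 were higher and 7 lower with vemurafenib, and 3 higher and 7 lower with the combination, shares near the 52.6% and 53.6% of all genes called, and the medians were -0.04 and -0.10. With scaling by total counts alone, which moves the median of all genes by 0.19 with vemurafenib and 0.16 with the combination on the log2 scale, they became 8 higher and 3 lower, and 4 higher and 3 lower. WDR5, which anchors MYC to chromatin, fell by 0.59 with vemurafenib and 0.67 with the combination, RUVBL1, an ATPase of the TIP60 complex, by 0.56 and 0.62, and HDAC2, a deacetylase of the SIN3 complex, by 0.55 and 0.60. MYCBP, a MYC binding protein, fell by 0.37 in both, a call lost with scaling by total counts.

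Of 15 genes that act on MYC protein stability, 3 were higher and 8 lower with vemurafenib, and again 3 and 8 with the combination, where all genes had 26.4% higher and 26.3% lower, and 27.1% and 26.5%. The medians were -0.21 and -0.29, and with scaling by total counts the calls became 5 and 5, and 4 and 5. USP36, a nucleolar deubiquitinase that stabilizes MYC, fell by 1.02 on the log2 scale with vemurafenib and 0.999 with the combination, from 102.8 ± 7.83 normalized CPM with DMSO to 50.9 ± 0.922 and 51.5 ± 1.56 (mean ± SD, n = 3). PPP2CA, the catalytic subunit of the phosphatase PP2A, fell by 0.52 and 0.59, and SKP2, a ubiquitin ligase subunit, by 0.51 and 0.45. HUWE1, a ubiquitin ligase of MYC and other proteins, rose by 0.43 and 0.49. AURKA, a kinase that protects MYCN from degradation, fell in all 3 treatments, by 0.34 with tretinoin, 0.35 with vemurafenib and 0.42 with the combination, the first lost with only the groups compared (-0.33, edgeR adjusted P = 0.065).

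Of 7 noncoding genes listed at the MYC, MYCN, MYCL and MAX loci, 4 were matched by symbol and PVT1, next to MYC, was the only one tested. Its normalized CPM was 4.08 ± 0.827 with DMSO, 4.40 ± 0.459 with tretinoin, 2.89 ± 0.676 with vemurafenib and 2.46 ± 0.305 with the combination (mean ± SD, n = 3). PVT1 fell with the combination (log2 fold change -0.73, SE 0.20, edgeR adjusted P = 0.0057) and with vemurafenib (-0.51, SE 0.20, edgeR adjusted P = 0.042), the latter a call lost in 8 of 14 alternatives.

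Over the 12 samples, the 5 genes whose log2 CPM followed MYC most closely were PVR (Pearson r = 0.998), IGFBP3 (0.998), FOSL1 (0.997), NT5E (0.997) and ETV4 (0.996), as a description. Within the network MLX (0.983) and MAX (0.978) followed MYC, MXD4 (-0.970) and MXD3 (-0.965) ran against it, and MYCL (-0.721), MXI1 (0.509), MXD1 (0.187) and MNT (-0.162) followed it less. The 12 points fall into samples with and without vemurafenib, and 1569 genes had an r of at least 0.95 in size. FOSL1 and ETV4 are also on the ERK list. Of these 5 genes, IGFBP3, an insulin-like growth factor binding protein, was higher in the combination than with vemurafenib (log2 fold change 0.60, SE 0.08, edgeR adjusted P = 1.3e-04). So was NT5E, an ectonucleotidase (0.30, SE 0.08, edgeR adjusted P = 0.045), a call lost in 9 of 14 alternatives. PVR, FOSL1 and ETV4 were not called there, where 2.27% of all genes were called higher. The 5 were chosen by likeness to MYC over these same samples, so their changes are not separate from that choice.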

How the data were processed

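The authors aligned paired-end reads of poly(A)-selected RNA to GRCh38.p10 with STAR 2.5.3a (per the submitters' notes) and deposited raw counts of fragments per gene on GENCODE 27, in union mode with the strand ignored, 1 library per file. Here genes were filtered with filterByExpr, normalized by TMM and tested with edgeR 4.0.16 (R 4.3.3) in 1 quasi-likelihood fit of all 12 samples with a term per group, Benjamini-Hochberg adjusted over all 16740 genes. The SE is the size of the log2 fold change divided by the square root of F. Positions and exon lengths came from GENCODE 29, which matched 58084 genes. Alternatives were DESeq2 1.42.0, other scalings and filters, fits of only the groups compared, a replicate block and fits leaving out each sample. The edgeR and DESeq2 fits were checked on simulated counts. Members and lists were chosen with earlier results of these data known. All members were named, and from each list up to 4 genes with the largest change called with the combination and up to 2 with tretinoin, with the 5 genes most like MYC. One gene that this rule names is not reported here. At this depth genes with few counts, such as MYCL, carry large errors.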

Additional observations from a re-analysis of the deposited data

Results flagged for a closer look

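By the interaction term of the edgeR fit, the tretinoin effect differed between cells with and without vemurafenib for CCND2 and NDRG1 of the target lists. It also differed for IGFBP3, which was picked by its likeness to MYC over these same samples. Over all genes 0.382% were called higher and 0.424% lower in this term. Of the 2 endothelial markers, CDH5 was called (2.88) and PECAM1 was not (-0.64). CDH5 was looked up after the call was seen, and it had as few as 1 count in a sample. For IGFBP3 the difference was 0.69 on the log2 scale (SE 0.11, edgeR adjusted P = 0.0057), since it differed by -0.09 between tretinoin and DMSO and rose by 0.60 from vemurafenib to the combination, and the call was kept in all 19 alternatives. For CCND2 the difference was -1.85 on the log2 scale (SE 0.40, edgeR adjusted P = 0.037), since it rose by 1.96 with tretinoin alone and differed by 0.11 between the combination and vemurafenib. CCND2 was low with DMSO, at 0.475 to 1.22 normalized CPM. For NDRG1 the difference was 0.51 (edgeR adjusted P = 0.046), since it fell by 0.57 with tretinoin alone and differed by -0.06 between the combination and vemurafenib. The calls of CCND2 and NDRG1 were lost with the replicate block and in most fits that left out a sample, while the direction was kept, from -2.26 to -1.55 for CCND2 and from 0.41 to 0.60 for NDRG1 over those fits.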

How the results depend on the processing

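No named member reversed a call in any alternative, and MYC, MAX, MLX, MXD3 and MXD4 kept theirs against DMSO with vemurafenib and with the combination in all 14. Leaving out 1 sample at a time, the number of members called ranged from 1 to 2 with tretinoin, where MNT joined without tretinoin replicate 3 (log2 fold change 0.39), and from 0 to 1 for the combination against vemurafenib. The latter was 0 without the filter on low counts and 2 at an adjusted P of 0.1, and at that threshold 1 member was called for the interaction; the cause was not tested. Over all genes, 951 were called with tretinoin, but 1540 without the filter, 305 with only the groups compared and 1715 at an adjusted P of 0.1. The number was 379 without DMSO replicate 2, 619 without tretinoin replicate 2 and 1367 without tretinoin replicate 3. For the combination against vemurafenib the 749 became 1269 with only the groups compared and 460 to 482 without vemurafenib replicate 1 or 2 or combination replicate 2 or 3. For the interaction the 135 became 256 or 252 with DESeq2, 610 without the filter, 269 at an adjusted P of 0.1 and 60 to 265 without 1 sample. With scaling by total counts alone, the share higher among called genes went from 61.3% to 81.3% with tretinoin, from 50.1% to 71.4% with vemurafenib, from 50.5% to 68.2% with the combination, from 50.7% to 42.6% for the combination against vemurafenib, from 49.0% to 60.7% against tretinoin and from 47.4% to 21.4% for the interaction, whose median moved by -0.10.

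Sharing a replicate number went with no common deviation (mean r = -0.03 over 18 pairs, and 0.02 over 36 pairs with different numbers), so the numbers were not taken as pairs. With the replicate block the interaction called 75 genes, and the number of members called was 1, 6, 6, 1, 5 and 0 for tretinoin, vemurafenib, the combination, the combination against vemurafenib, the combination against tretinoin and the interaction.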
